A study of Mus musculus with 5 samples.

Results

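The phagocyte NADPH oxidase is described here through 5 of its subunit genes, Cybb, Cyba, Ncf1, Ncf4 and Rac2, chosen by symbol from the 22815 symbols of the deposited table. All 5 were measured in every library and all 5 passed the filter on low values, which kept the 11117 genes that reached 1 FPKM in any library. FPKM values scale fragments to transcript length and to sequencing depth, so levels of different genes are compared per length. RNA came from cells washed out of the peritoneal cavity of 8-week-old mice and was sequenced with Smart-seq2, a method for small amounts of polyadenylated RNA. The groups were Irf8-deficient mice given pristane (labelled Irf8KO, 2 libraries), C57BL/6 wild-type (WT) mice given pristane (2 libraries) and WT mice given phosphate-buffered saline (PBS, 1 library). Pristane is a hydrocarbon oil that causes lasting sterile inflammation in the peritoneum. None of the 5 libraries came from Irf8-deficient mice given PBS. A genotype difference present without pristane and a different response to pristane thus cannot be told apart. The kind of Irf8 allele and time after injection are not given. Nor is it stated whether replicates were separate animals, so the p-values rest on the spread between libraries. That spread may be technical in the Irf8KO-labelled pair, while the WT pristane pair differed in sex-linked RNAs, as given below.

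The oxidase moves electrons from NADPH across the membrane to oxygen and so makes superoxide for the killing of microbes. Cybb and Cyba form the membrane-bound flavocytochrome, and the cytosolic subunits and a Rac GTPase join it only when the cell is stimulated. Loss of the enzyme in humans causes chronic granulomatous disease, and natural variation in Ncf1 alters the severity of pristane-induced arthritis in rats. In human myeloid cells IRF8, together with the Ets factor PU.1 (gene Spi1) and IRF1, is described as an activator of the CYBB promoter.

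Because of this described role of Ets and IRF factors, promoter sequences are given first. RefSeq promoter windows (GRCm38.p6, 250 bases before to 50 after the gene start, printed 5′ to 3′ on the gene's strand) were found for 3 of the 5 genes, Cybb, Cyba and Ncf1. Each was searched on both strands for GAGGAA, the core of an Ets site, for GGAA followed after any 2 bases by GAAA, an Ets and IRF composite, and for GAAA followed after any 2 bases by GAAA, the core of an interferon-stimulated response element. The windows that held a match are shown with the matched bases in capitals, Cybb from the minus strand at chrX:9469275-9469574 and Ncf1 from the minus strand at chr5:134229576-134229875.
Cybb: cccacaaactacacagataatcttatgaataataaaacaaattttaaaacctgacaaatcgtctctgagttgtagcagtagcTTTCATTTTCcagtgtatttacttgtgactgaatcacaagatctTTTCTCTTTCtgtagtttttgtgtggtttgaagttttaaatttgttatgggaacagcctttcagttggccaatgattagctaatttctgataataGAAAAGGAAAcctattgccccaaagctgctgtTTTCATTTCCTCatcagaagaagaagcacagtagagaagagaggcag
Ncf1: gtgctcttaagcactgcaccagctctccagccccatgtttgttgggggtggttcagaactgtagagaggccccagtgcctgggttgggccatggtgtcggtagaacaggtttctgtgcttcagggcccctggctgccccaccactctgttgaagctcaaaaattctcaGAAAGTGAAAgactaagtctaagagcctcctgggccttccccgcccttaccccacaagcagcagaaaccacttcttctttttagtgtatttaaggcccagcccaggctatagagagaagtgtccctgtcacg
The Cybb window held the composite on the opposite strand at bases 254 to 263, just after the annotated start, where it overlapped the Ets core at bases 260 to 265. It also held the response element core 3 times, at bases 83 to 92, 127 to 136 and 222 to 231. The Ncf1 window held that core once, at bases 169 to 178, and the Cyba window held none of these letters. Among 32851 promoter windows of this length, 28.3% held the Ets core, 2.72% the composite and 3.44% the response element core. These are matches of letters and say nothing of binding in these cells.

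Judged from the smallest values in the table, each library held roughly 2310000 to 5190000 assigned fragments, so that a single fragment on 1 kb gave 0.193 to 0.433 FPKM. The lowest subunit value, 50.8 FPKM, was far above that. Irf8 stood at 120.5 and 59.4 FPKM in the Irf8KO-labelled pair, 63.3 and 48.7 FPKM in WT pristane and 32.4 FPKM in WT PBS. Its RNA was thus not lower in the Irf8KO-labelled pair (log2 change 0.60 ± 0.41 SE, limma adjusted p = 0.471), and values per gene cannot show an altered transcript. Xist, the RNA that coats the inactive X of females, was at 0.0148 and 0.0145 FPKM in the Irf8KO-labelled pair, listed at 0 and at 8.81 FPKM in WT pristane, and at 43.5 FPKM in WT PBS. Eif2s3y, a Y-linked gene, stood at 23.2 and 25.6 FPKM in the Irf8KO-labelled pair and 12.9 FPKM in replicate 1 of WT pristane. The table gives 0 for it in replicate 2 of WT pristane and in WT PBS. Sex and group therefore cannot be told apart for the PBS library and in part for WT pristane. By these genes the WT pristane libraries came from different animals, and the spread between them includes a difference of sex.

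The 5 subunits did not move as a block. With pristane, the RNAs of the cytosolic subunits Ncf1 and Ncf4 and of the membrane subunit Cyba stood above the PBS level in all 4 pristane libraries, as did 28.9% of all genes tested, while Cybb, the catalytic subunit, and Rac2 straddled it. Under pristane, Cyba, Ncf1 and Rac2 were higher in both Irf8KO-labelled libraries than in both WT libraries, Ncf4 was lower in both, and Cybb overlapped. Of all genes tested, 26.1% were higher and 27.1% lower in this way. Together the 5 genes made up 0.486% and 0.499% of all FPKM in the Irf8KO-labelled pair, 0.466% and 0.371% in WT pristane and 0.230% in WT PBS.

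**Figure D1:**
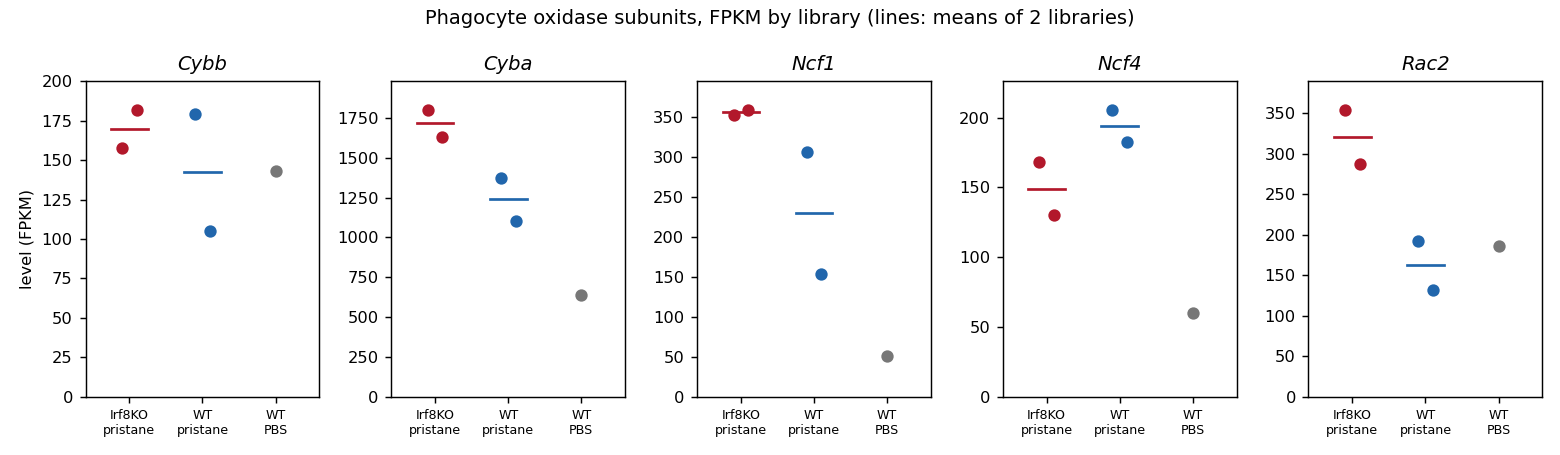
Level in FPKM (vertical axes from 0, a separate scale per gene) of each oxidase subunit in each library, grouped as Irf8KO pristane, WT pristane and WT PBS. Each point is 1 library and each line the mean of 2 libraries. The PBS point lies below all pristane points for Cyba, Ncf1 and Ncf4, and among them for Cybb and Rac2.

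Cybb encodes the heme- and flavin-carrying chain that transfers the electrons. It stood at 158 and 182 FPKM in the Irf8KO-labelled pair, 179 and 105 FPKM in WT pristane and 143 FPKM in WT PBS. The WT pristane libraries lay on either side of PBS and of 1 Irf8KO-labelled library, and the only separation was that both Irf8KO-labelled libraries were above PBS. Irf8KO against WT pristane gave a log2 change of 0.30 ± 0.32 (SE, adjusted p = 0.629, 95% interval −0.58 to 1.18). Against PBS it was −0.057 ± 0.39 in WT pristane (adjusted p = 0.936, interval −1.13 to 1.02) and 0.24 ± 0.39 in the Irf8KO-labelled pair (adjusted p = 0.687, interval −0.83 to 1.32). WT pristane replicate 2 set the sign of the first 2 values: without it they were −0.084 and 0.33. A doubling lay inside all 3 intervals. Cybb is X-linked, and its lowest values were in WT pristane replicate 2 and PBS, the libraries with Xist above 1 FPKM. Cyba, Ncf1 and Rac2, on chromosomes 8, 5 and 15, also had their lowest values in these libraries. Ncf4, on chromosome 15, had its lowest in PBS and Irf8KO pristane replicate 2. The part of sex in these levels was not tested. Here and for all genes, a log2 change is the limma estimate on log2(FPKM + 1), with 2-sided p-values adjusted (Benjamini-Hochberg) across the 11117 genes and 0.05 as the threshold.

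Cyba encodes the small membrane chain that stabilises Cybb and offers the docking site for the Ncf1 protein. It was the most abundant subunit RNA in every library, at 1801 and 1629 FPKM in the Irf8KO-labelled pair, 1375 and 1104 FPKM in WT pristane and 639 FPKM in WT PBS. The groups did not overlap, and Cyba ranked 47th and 37th of all listed genes in the Irf8KO-labelled pair, 49th and 58th in WT pristane and 117th in PBS. Its log2 change was 0.47 ± 0.22 SE in Irf8KO against WT pristane (adjusted p = 0.324), and 0.24 when each library was scaled to the same sum. Against PBS it was 0.95 ± 0.27 in WT pristane (adjusted p = 0.0998) and 1.42 ± 0.27 in the Irf8KO-labelled pair (adjusted p = 0.056). None of these passed.

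Ncf1 encodes the organiser that, once phosphorylated, carries the cytosolic subunits to the membrane. Its values were 352 and 359 FPKM in the Irf8KO-labelled pair, 306 and 154 FPKM in WT pristane and 50.8 FPKM in WT PBS. Relative to its level this was the widest range of the 5 genes, and the 2 WT pristane libraries differed from each other more than the 2 Irf8KO-labelled libraries did. Ncf1 rose in the Irf8KO-labelled pair against PBS (log2 change 2.78 ± 0.46 SE, adjusted p = 0.0483). In WT pristane against PBS the log2 change was 2.07 ± 0.46 and missed the threshold (adjusted p = 0.0682). For Irf8KO against WT pristane it was 0.71 ± 0.38 (adjusted p = 0.375). That last value was 1.21 without WT pristane replicate 1 and 0.22 without WT pristane replicate 2.

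Ncf4 encodes the subunit that binds phosphatidylinositol 3-phosphate and holds the enzyme active on phagosomes. It stood at 168 and 130.2 FPKM in the Irf8KO-labelled pair, 206 and 183 FPKM in WT pristane and 60.2 FPKM in WT PBS. WT pristane was highest in both libraries and PBS lowest, with no overlap between groups. Ncf4 rose in WT pristane against PBS (log2 change 1.67 ± 0.25 SE, adjusted p = 0.038). In the Irf8KO-labelled pair against PBS the log2 change was 1.28 ± 0.25 (adjusted p = 0.057). For Irf8KO against WT pristane it was −0.39 ± 0.20 (adjusted p = 0.364, interval −0.94 to 0.17), and −0.62 when each library was scaled to the same sum. It was −0.20 without Irf8KO pristane replicate 2.

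Rac2 encodes the blood-cell Rac GTPase that switches the assembled enzyme on. Its values were 354 and 287 FPKM in the Irf8KO-labelled pair, 192 and 132 FPKM in WT pristane and 186 FPKM in WT PBS. The Irf8KO-labelled pair stood above all 3 WT libraries, and the PBS library fell between the WT pristane pair. Irf8KO against WT pristane gave a log2 change of 1.00 ± 0.26 SE (unadjusted p = 0.0193 by limma, adjusted p = 0.172, interval 0.27 to 1.72), the largest of the 5 and short of the threshold. Against PBS it was −0.22 ± 0.32 in WT pristane (adjusted p = 0.662), turning to 0.050 without WT pristane replicate 2, and 0.78 ± 0.32 in the Irf8KO-labelled pair (adjusted p = 0.184).

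**Figure D2:**
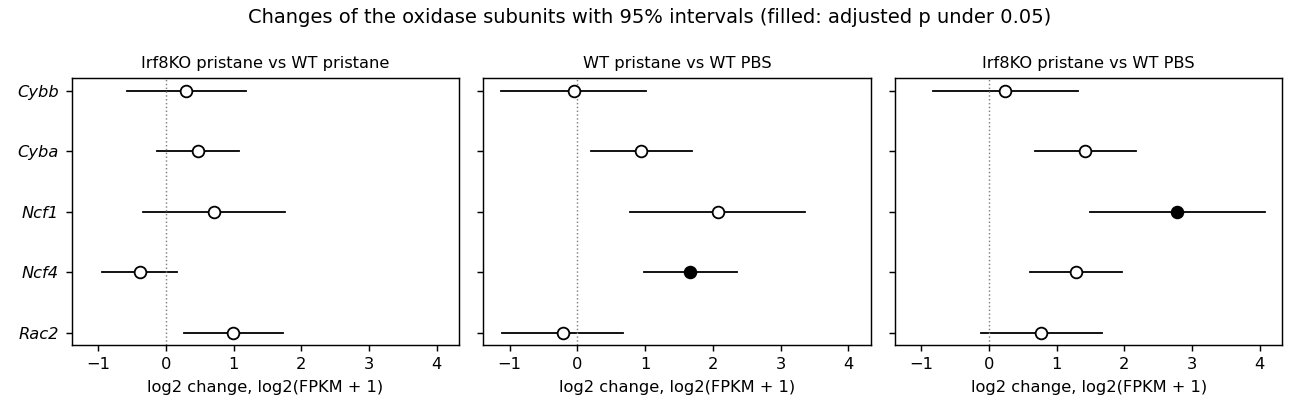
Log2 change on the log2(FPKM + 1) scale (horizontal axis) of each subunit with its 95% interval, in 3 comparisons. Points are limma estimates from 2 libraries against 2 or against the single PBS library, and filled points passed an adjusted p of 0.05, which only Ncf4 in WT pristane and Ncf1 in Irf8KO pristane did, each against PBS.

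Few of these differences passed, and their counts are given with the share of all genes that did the same. For Irf8KO against WT pristane 0 of 5 subunits passed, where 0.027% of genes tested did, and 1 of 5 had an unadjusted p under 0.05, where 20.6% of genes did (limma). In WT pristane against PBS 1 of 5 passed, where 10.6% of genes did, and it was higher, as were 5.18% of genes. An unadjusted p under 0.05 was found for 3 of 5, against 33.8% of genes. In the Irf8KO-labelled pair against PBS 1 of 5 passed, where 8.54% of genes did, and it was higher, as were 3.81% of genes. Here too 3 of 5 had an unadjusted p under 0.05, against 33.7% of genes. Both of these comparisons use the same single PBS library, whose variation was taken to equal that of the pristane pairs.

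Separation of the groups was counted as well. Between the pristane groups 3 of 5 were higher and 1 lower without overlap, where 26.1% and 27.1% of genes were. In WT pristane against PBS 3 of 5 were higher and 0 lower, where 37.3% and 44.5% of genes were. All 5 were higher in the Irf8KO-labelled pair than in PBS, where 40.7% of genes were higher and 46% lower. The median log2 change of the 5 subunits was 0.47 in Irf8KO against WT pristane, 0.95 in WT pristane against PBS and 1.28 in Irf8KO pristane against PBS. Over all genes tested these medians were −0.0018, −0.071 and −0.050. All 5 subunits were higher in WT pristane replicate 1 than in replicate 2, as were 53.2% of genes.

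Both calls were lost when any 1 of the 4 pristane libraries was left out. Such a fit leaves 1 library in a group and less information on the spread of every gene. How many of all genes still passed was not counted, so the loss cannot be read as particular to Ncf4 or Ncf1. The log2 change of Ncf4 in WT pristane against PBS was 1.58 and 1.75 without WT pristane replicates 1 and 2. It was unchanged at 1.67 without either Irf8KO pristane library. That of Ncf1 in the Irf8KO-labelled pair against PBS was 2.80 and 2.77 without Irf8KO pristane replicates 1 and 2. Without either WT pristane library it was unchanged at 2.78. The log2 change of Ncf4 stayed between 1.58 and 1.75 and that of Ncf1 between 2.57 and 2.80 over all alternatives tried.

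Ratios of FPKM within a library do not depend on how the libraries were scaled to each other, and they show how the make-up of the subunit RNAs differed between groups. They were chosen after the levels were seen and are given as values with no test. Cyba exceeded Cybb 11.4- and 8.95-fold in the Irf8KO-labelled pair, 7.66- and 10.5-fold in WT pristane and 4.48-fold in WT PBS. All pristane libraries were above PBS in this ratio, and the pristane groups overlapped. The ratio of Ncf1 to Cybb was 2.24 and 1.97 in the Irf8KO-labelled pair, 1.70 and 1.46 in WT pristane and 0.356 in WT PBS. Ncf1 RNA was thus below Cybb RNA in the PBS library and above it in every pristane library.

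The cytosolic subunits Ncf1 and Ncf4 were also set against each other. The ratio of Ncf1 to Ncf4 was 2.10 and 2.76 in the Irf8KO-labelled pair, 1.49 and 0.841 in WT pristane and 0.844 in WT PBS. Both Irf8KO-labelled libraries lay above all 3 WT libraries. The ratio of Rac2 to Cybb showed the same separation, with 2.25 and 1.58 in the Irf8KO-labelled pair, 1.07 and 1.26 in WT pristane and 1.30 in WT PBS.

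Rac1, the widely expressed Rac GTPase that macrophages also use for the oxidase, was followed beside Rac2. It stood at 181 and 219 FPKM in the Irf8KO-labelled pair, 212 and 192 FPKM in WT pristane and 78.3 FPKM in WT PBS. Rac1 rose against PBS both in WT pristane (log2 change 1.36 ± 0.22 SE, adjusted p = 0.0428) and in the Irf8KO-labelled pair (1.33 ± 0.22, adjusted p = 0.0477), and had a log2 change of −0.025 ± 0.18 between the pristane groups (adjusted p = 0.959). Both of its calls were lost when libraries were scaled to the same sum, with no filter and with no variance trend, and that in the Irf8KO-labelled pair also with a pseudocount of 0.1. The ratio of Rac2 to Rac1 was 1.96 and 1.31 in the Irf8KO-labelled pair, 0.905 and 0.687 in WT pristane and 2.37 in WT PBS. Rac2 was the more abundant of the pair in PBS and in the Irf8KO-labelled pair, and Rac1 in WT pristane. The coding sequences of these genes are similar, and fragments that match both may have been split between them.

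**Figure D3:**
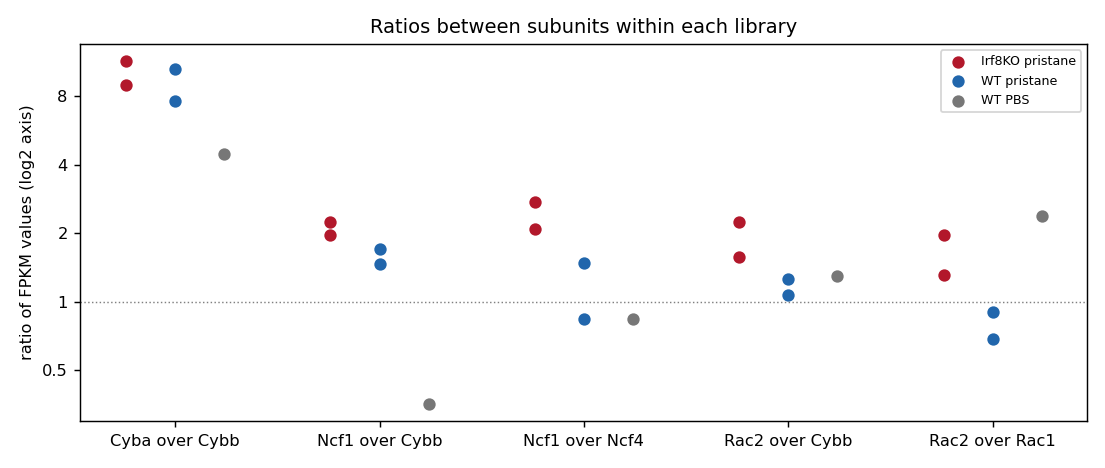
Ratio of FPKM values of 2 genes within the same library (vertical log2 axis), with 1 point per library for Irf8KO pristane, WT pristane and WT PBS. Ratios of Ncf1 to Cybb are below 1 only in the PBS library, and ratios of Rac2 to Rac1 are below 1 only in the WT pristane libraries.

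Likeness of pattern was measured as the root mean square difference between log2(FPKM + 1) profiles over the 5 libraries, each centred on its own mean, among the 4554 genes whose profile averaged 3 or more. The nearest pair of subunits by distance was Cybb and Rac2, at 0.36 on the log2 scale, with 1303 other genes nearer to Cybb than Rac2 was. The fewest genes came between Ncf1 and Ncf4, at 0.68, with 472 nearer to Ncf1 than Ncf4 was. This count was taken from 1 gene of each pair. The farthest was Cybb and Ncf1, at 0.96. No subunit was among the 3 genes nearest to another. Nearest to Cybb were Arrb1, a beta-arrestin, at 0.068, Fam86 at 0.071 and Fzr1, an activator of the anaphase-promoting complex, at 0.073. Nearest to Cyba were Atp6v0b, a subunit of the vacuolar proton pump, at 0.072, Pef1 at 0.074 and Frrs1 at 0.075.

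The complement component C3 was nearest to Ncf1, at 0.072. C3 stood at 100.2 and 99.0 FPKM in the Irf8KO-labelled pair, 83.0 and 47.6 FPKM in WT pristane and 13.6 FPKM in WT PBS, and so shared with Ncf1 the low WT pristane replicate 2. Atox1, a copper chaperone, followed at 0.16 and Cdc42ep2 at 0.16. Nearest to Ncf4 were Lrrc25 at 0.046, the Toll-like receptor adaptor Myd88 at 0.085 and the phosphatase Ptpre at 0.094. Nearest to Rac2 were Cks2, a cyclin-dependent kinase subunit, at 0.071, the respiratory chain gene Cox8a at 0.083 and Trmt112 at 0.085. With 5 libraries these distances are descriptions only.

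Genes that act around the oxidase were followed as a list of 52 symbols found in the table, of which 41 passed the filter. The list was chosen with earlier results of these data known, so its counts are descriptions only. After pristane in WT, 7 of the 41 rose and 0 fell, where 5.18% of all genes rose and 5.46% fell. The median log2 change was 0.76 beside −0.071 over all genes. Without overlap 27 of the 41 were higher and 10 lower, where 37.3% and 44.5% of genes were. Receptors that trigger the burst made up 4 of the 7. Fcgr1, the high-affinity IgG receptor, had a log2 change of 5.31 ± 0.84 SE (adjusted p = 0.042), and Fpr2, a formyl peptide receptor, of 3.65 ± 0.47 (adjusted p = 0.0331). Clec7a, the receptor for fungal beta-glucan also called Dectin-1, had a change of 3.47 ± 0.33 (adjusted p = 0.0267). C5ar1, the receptor for the complement fragment C5a, changed by 2.76 ± 0.30 (adjusted p = 0.0292). The other 3 were Rac1, the Ets factor Spi1 (2.07 ± 0.35, adjusted p = 0.0456) and Gpx1, a peroxidase that removes hydrogen peroxide (1.49 ± 0.26, adjusted p = 0.0467). In the Irf8KO-labelled pair against PBS, 5 of 41 rose (Rac1, Fpr2, C5ar1, Clec7a and Gpx1) and 0 fell, where 3.81% of genes rose and 4.72% fell. With no filter on low values none of these 5 passed, and Elf1 and Noxo1 were lower. Neither count held when any 1 of the 4 pristane libraries was left out. The share of all genes passing was not counted with no filter or with a pristane library left out.

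In Irf8KO against WT pristane 0 of the 41 passed by limma with all 5 libraries, and 8 had an unadjusted p under 0.05, where 20.6% of all genes did. Fcgr1 stood apart in size, at 2.97 and 3.72 FPKM in the Irf8KO-labelled pair, 73.1 and 271 FPKM in WT pristane and 2.59 FPKM in WT PBS (log2 change −5.04 ± 0.69 SE between the pristane groups, adjusted p = 0.0883). In a fit of the 4 pristane libraries alone 4 of the listed genes fell and 0 rose, where 2.15% of the 10431 genes then tested fell and 1.98% rose. Among the 4 were Fcgr1 (adjusted p = 0.0102), Tiam1, a Rac exchange factor (adjusted p = 0.0305), and Clec7a (adjusted p = 0.0494). No oxidase subunit passed in that fit. With the replicate number as a block 4 of the listed genes fell, where 3.98% of genes fell, and 1 of 5 subunits, Rac2, passed and was higher (adjusted p = 0.0492), where 3.68% of genes were.

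Spi1 stood at 242 and 201 FPKM in the Irf8KO-labelled pair, 339 and 216 FPKM in WT pristane and 63.6 FPKM in WT PBS. Its log2 change between the pristane groups was −0.30 ± 0.29 (adjusted p = 0.601). Irf1 stood at 41.4 and 21.7 FPKM in the Irf8KO-labelled pair, 58.0 and 80.0 FPKM in WT pristane and 29.8 FPKM in WT PBS (log2 change −1.16 ± 0.39 between the pristane groups, adjusted p = 0.221). Spi1 thus overlapped between the pristane groups, while Irf1 was lower in both Irf8KO-labelled libraries than in both WT pristane libraries.

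Hvcn1, the proton channel that balances the charge carried out by the oxidase, stood at 16.9 and 11.0 FPKM in the Irf8KO-labelled pair, 18.0 and 3.39 FPKM in WT pristane and 25.5 FPKM in WT PBS, with no comparison past the threshold. Rap1a, a GTPase that copurifies with the flavocytochrome, stood at 48.4 and 54.4 FPKM in the Irf8KO-labelled pair, 47.1 and 41.2 FPKM in WT pristane and 39.2 FPKM in WT PBS, and did not pass either. None of the 9 listed genes of other NADPH oxidases (Nox1, Nox3, Nox4, Noxo1, Noxa1, Duox1, Duox2, Duoxa1 and Duoxa2) reached 1 FPKM. The highest value among them was 0.409 FPKM for Noxo1 in WT PBS, about the worth of a single fragment on 1 kb.

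**Figure D4:**
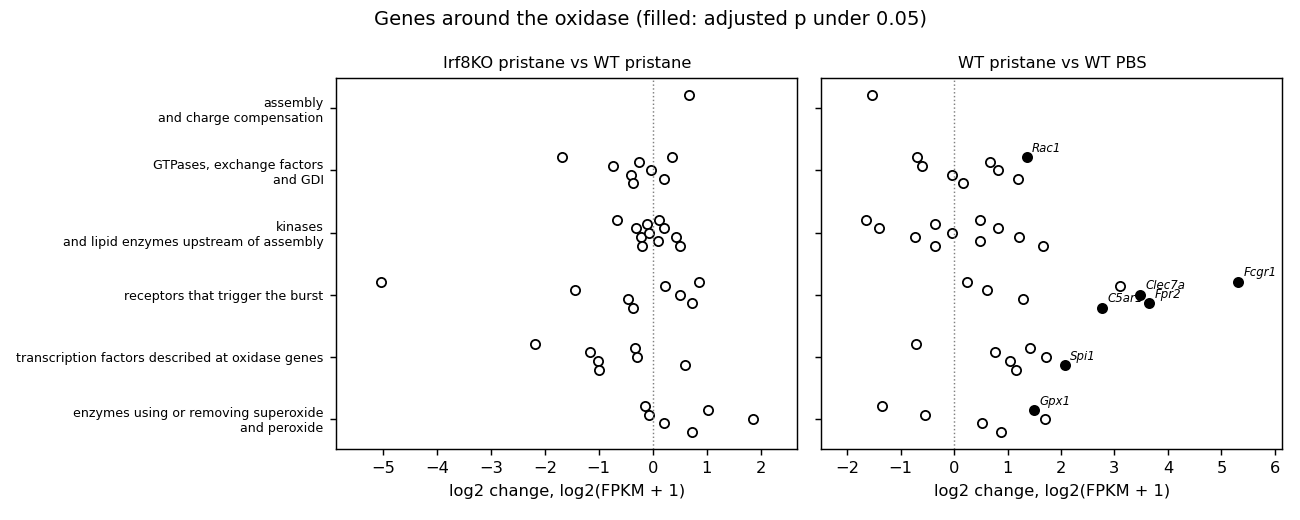
Log2 change on the log2(FPKM + 1) scale (horizontal axis) of 41 genes that act around the oxidase, by role, for Irf8KO pristane against WT pristane and for WT pristane against WT PBS. Each point is a gene, and filled, named points passed an adjusted p of 0.05: 0 in the first panel and 7 in the second, all of them higher.

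Neutrophils, monocytes and macrophages express the subunits, and B cells and other blood cells can express some of them, such as the blood-cell GTPase gene Rac2. In RNA from mixed cells fewer cells of a type and less RNA per cell cannot be told apart. Marker levels of these cells differed between libraries as follows, with no test of any list. The summed level of 7 mature neutrophil markers found of 8 listed was 45421 and 23273 FPKM in the Irf8KO-labelled pair, 16381 and 14600 FPKM in WT pristane and 154 FPKM in WT PBS. In Irf8KO against WT pristane 4 of these 7 were higher and 1 lower without overlap, where 26.1% of all genes were higher and 27.1% lower. These shares also stand beside the later marker counts between the pristane groups. S100a8 made up most of each sum. It stood at 29441 and 16300 FPKM in the Irf8KO-labelled pair and 10376 and 9877 FPKM in WT pristane. S100a9, the next highest, overlapped between the pristane groups, at 5221 FPKM in Irf8KO pristane replicate 2 and 5295 FPKM in WT pristane replicate 1. Il1r2 was the 1 lower, at 170 and 107 FPKM in the Irf8KO-labelled pair and 212 and 321 FPKM in WT pristane. It was listed at 0 with PBS. Markers of neutrophil granules and precursors summed to 4073 and 2158 FPKM in the Irf8KO-labelled pair, 588 and 1128 FPKM in WT pristane and 72.3 FPKM in WT PBS, with 6 of 8 higher in the Irf8KO-labelled pair. Elane, Ltf and Camp were listed at 0 with PBS. Prtn3 made up most of the PBS sum, at 62.0 FPKM, and was lower in WT pristane, at 7.53 and 18.0 FPKM. The other 7 of these markers were higher in both WT pristane libraries than in PBS, where 37.3% of all genes were. Lcn2 made up most of the pristane sums, at 2706 and 1414 FPKM in the Irf8KO-labelled pair and 552 and 891 FPKM in WT pristane.

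Large peritoneal macrophage markers summed to 1451 and 2458 FPKM in the Irf8KO-labelled pair, 135 and 219 FPKM in WT pristane and 2013 FPKM in WT PBS, with 7 of 8 higher and 1 lower without overlap between the pristane groups (26.1% and 27.1% of all genes). None of the 8 was listed at 0. Emr1, Icam2, Alox15 and Cd5l made up most of each sum. Timd4 was the 1 lower, at 0.0957 and 0.552 FPKM in the Irf8KO-labelled pair and 0.676 and 0.838 FPKM in WT pristane. With PBS it stood at 26.9 FPKM. Inflammatory monocyte markers summed to 2753 and 3098 FPKM in the Irf8KO-labelled pair, 2603 and 6567 FPKM in WT pristane and 1696 FPKM in WT PBS, with 5 of 8 lower and 1 higher between the pristane groups and none at 0. Fn1 made up most of the sum in the Irf8KO-labelled pair, at 2335 and 2859 FPKM, against 1562 and 926 FPKM in WT pristane and 868 FPKM in WT PBS. The sum of WT pristane replicate 2 was largely Chil3, at 3999.8 FPKM, while Chil3 stood at 120.0 and 69.6 FPKM in the Irf8KO-labelled pair and 88.9 FPKM in WT pristane replicate 1. Ly6c2, a defining marker, stood at 42.9 and 19.8 FPKM in the Irf8KO-labelled pair, 145 and 296 FPKM in WT pristane and 2.51 FPKM in WT PBS. B cell markers summed to 185 and 99.2 FPKM in the Irf8KO-labelled pair, 39.5 and 10.4 FPKM in WT pristane and 2446 FPKM in WT PBS, with 5 of 8 higher between the pristane groups and Fcer2a listed at 0 in WT pristane replicate 2. Eosinophil markers summed to 6.20 and 4.67 FPKM in the Irf8KO-labelled pair, 20.1 and 26.2 FPKM in WT pristane and 22.2 FPKM in WT PBS, with 4 of 7 lower between the pristane groups. Epx, the eosinophil peroxidase, was listed at 0 in all 5 libraries. The PBS sum was mostly Il5ra, at 16.2 FPKM, and the WT pristane sums mostly Ear2, at 14.9 and 16.1 FPKM. Dendritic cell markers summed to 20.9 to 41.4 FPKM in the Irf8KO-labelled pair, 29.7 to 101 FPKM in WT pristane and 147 FPKM in WT PBS, with 6 of 8 lower between the pristane groups. The PBS sum was mostly Ccr7, at 123 FPKM, and Cd209a, at 20.7 FPKM. The other 6 markers were higher in both WT pristane libraries than in PBS, where 37.3% of all genes were. T cell markers, 7 of 8 found, summed to 33.4 to 42.3 FPKM in the Irf8KO-labelled pair, 75.5 to 111 FPKM in WT pristane and 125 FPKM in WT PBS, with all 7 lower between the pristane groups. Natural killer cell markers summed to 36.1 to 84.7 FPKM in the Irf8KO-labelled pair, 141 to 194 FPKM in WT pristane and 64.8 FPKM in WT PBS, with 7 of 8 lower between the pristane groups. Mast cell markers summed to 112 to 114 FPKM in the Irf8KO-labelled pair, 52.4 to 190.1 FPKM in WT pristane and 329 FPKM in WT PBS, with 1 of 8 higher and 1 lower between the pristane groups. Hdc, which other myeloid cells also express, made up most of the pristane sums, at 108 and 109.8 FPKM in the Irf8KO-labelled pair, 186 and 50.2 FPKM in WT pristane and 10.9 FPKM in WT PBS. The other 7 mast cell markers were lower in both WT pristane libraries than in PBS, where 44.5% of all genes were. Cma1, the highest of them, stood at 2.38 and 3.40 FPKM in the Irf8KO-labelled pair, 1.12 and 0.834 FPKM in WT pristane and 134 FPKM in WT PBS. Mcpt4 was listed at 0 in all pristane libraries and stood at 70.2 FPKM in WT PBS. The part of these shifts in the subunit levels was not tested.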

How the data were processed

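The authors deposited 1 table of FPKM values for 5 libraries, named a count table. Per the submitters' processing notes BWA, TopHat2 2.0.10, Cufflinks 2.2.1 and Cuffnorm were used, with no role or order. The genome build, the annotation and any scaling between libraries are not stated. Depth was estimated from single-transcript genes of at least 1000 bases under 0.3 FPKM (58.3% to 81.0% of near-single-fragment products within 0.15 of a whole number).

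All 11117 genes reaching 1 FPKM in any library were fitted in 1 limma-trend model (limma 3.58.1, R 4.3.3; 3 group means, 5 libraries) on log2(FPKM + 1), a scale that understates changes of low genes. It had 2 residual and 1.99 prior degrees of freedom. A run on simulated data, with independent noise and a known shift, was required only to recover the mean log2 change. It does not test the calls made here. Alternatives were a pseudocount of 0.1, no filter, a mean of at least 5 FPKM, 2 scalings, no variance trend, leaving out each library, and the pristane libraries alone with and without a replicate block.

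Subunits, the list of genes around the oxidase and cell markers were chosen with earlier results of these data known. The rule named the subunits, Irf8, Xist, Eif2s3y, Hvcn1, Rac1, Rap1a, listed genes past the threshold (up to 10 a comparison) and the 3 genes nearest in pattern to each subunit, without predicted, ribosomal protein or antigen receptor genes. Irf1, Tiam1, Elf1, Noxo1, Ly6c2, markers that dominate a sum, single markers at 0, Fcgr1 and Spi1 between the pristane groups, the genes of other oxidases and all ratios were chosen after their values were seen. So were S100a9, Il1r2 and Timd4. Siglecf was matched as Siglec5 and Adgre1 as Emr1, and Cybc1 was not matched. Values of 1 listed gene are not reported here.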

Additional observations from a re-analysis of the deposited data

How the results depend on the processing

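The directions of Cyba, Ncf1 and Ncf4 held in all 3 comparisons under every alternative run, while calls did not. Shares of all genes passing were counted only for the fit as reported and for the pristane libraries alone. Counts under the other alternatives have no such share beside them, so they may follow a change in calls over all genes. With a mean of at least 5 FPKM, 3 subunits passed in Irf8KO pristane against PBS and 2 in WT pristane against PBS (1 each as reported). The genes around the oxidase that passed were then 14, 11 and 2 in Irf8KO pristane against PBS, WT pristane against PBS and Irf8KO against WT pristane (5, 7 and 0 as reported). With no filter 0 subunits passed against PBS in either group. Of those genes 2 then passed in Irf8KO pristane against PBS, both lower (Elf1 and Noxo1), in place of the 5 that rose, and 3 in WT pristane against PBS, C5ar1 and Clec7a higher and Noxo1 lower. Noxo1 was not among the 41 genes tested with the filter. With a pseudocount of 0.1, and with no variance trend, 0 subunits passed in Irf8KO pristane against PBS, and 2 and 3 of those genes. Leaving out 1 library gave 0 subunits in each comparison, and of the genes around the oxidase 0 to 4 between the pristane groups and 0 against PBS. The log2 change of Cybb then ran between −0.084 and 0.69 in Irf8KO against WT pristane and between −0.44 and 0.33 in WT pristane against PBS, and that of Rac2 in WT pristane against PBS between −0.49 and 0.050.

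Scaling to a common sum shifted the median of all genes to −0.20 in Irf8KO against WT pristane and −0.26 in Irf8KO pristane against PBS, and changed no subunit call. The pristane libraries alone gave 4 of the genes around the oxidase, all lower, with and without the replicate block, where 3.98% and 2.15% of all genes were lower. With the replicate block 1 subunit passed, Rac2 (log2 change 1.00, limma adjusted p = 0.0492, against 0.107 without it; 0.0492 to 0.542 over all its alternatives). The labels do not say that numbers pair samples, and the replicate differences of the 2 groups had a correlation of 0.0448 across genes. The PBS library carries no number, so no block was possible against it. The causes were not tested.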
